A study of Mus musculus with 2 samples.

Results

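Lymphatic endothelial cells line the vessels that drain fluid, lipid and leukocytes from tissue. In 2 single-cell RNA libraries made from distal colon adenomas of mice, 157 cells were taken as lymphatic, out of 849 cells that the authors annotated as endothelial and 14097 cells in all. A cell was included if it was annotated as endothelial and had a value above 0 for at least 2 of 4 genes: Lyve1, Prox1, Mmrn1 and Reln. The other 692 endothelial cells are called the remaining endothelial cells below. The members were thus chosen by measured values of those 4 genes, which are described here without a test.

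Both libraries came from mice of 25 weeks carrying Apcmin, a germline mutation of the tumor suppressor Apc that causes intestinal adenomas, together with LSL-mTERT, an allele from which telomerase reverse transcriptase is expressed only once a stop cassette has been removed. Their titles name them G0+T and G4+T. How many animals or adenomas were pooled in each, and what removed the cassette, is not given in the sources used here. The deposited class file places every cell of the library with barcode suffix 1 in CIN_high (6189 cells) and every cell of the library with suffix 2 in CIN_low (7908 cells). Because all cell names share the prefix G0, the titles and the cell names conflict, and no cell was assigned to G0+T or G4+T. Class and library are therefore the same split, with 1 library on each side, and a difference between classes cannot be told apart from a difference between libraries.

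As background, lymphatic identity is set by the transcription factor Prox1, which together with Sox18 and Nr2f2 directs venous endothelium to the lymphatic fate. The growth factor Vegfc acts on lymphatic cells through the receptor Flt4 (VEGFR3) and its co-receptor Nrp2. Initial lymphatics attract dendritic cells and T cells that carry Ccr7 by presenting the chemokine Ccl21, and in the intestine lymphatic vessels run close to the crypts and also carry absorbed lipid.

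Lymphatic cells made up 22.3% of the endothelial cells of the CIN_high library (134 of 602, 95% exact Clopper-Pearson interval 19.0 to 25.8%) and 9.31% of those of the CIN_low library (23 of 247, 5.99 to 13.6%). The intervals cover counting error only and did not overlap, but with 1 library a class the difference has no replicate check. As a share of all cells of the library they were 2.17% and 0.291%. The lymphatic cells were shallower than the remaining endothelial cells, with medians of 2502 (CIN_high) and 3489 (CIN_low) UMIs, the counted RNA molecules, against 3959 and 4618. When every endothelial cell was thinned to 2000 UMIs and shallower cells were left out (40 and 5 of the lymphatic, 82 and 39 of the remaining), 19.2% and 8.37% met the rule. With only 1 rule gene required in place of 2, the shares were 26.6% and 23.9%, and with 3 required they were 21.3% and 8.50%. No barcode of a lymphatic cell occurred in the other library, although 11 barcodes occurred in both libraries over all cells. Scrublet, a doublet caller, marked 4 and 1 lymphatic cells, and 4 and 0 had UMIs of at least 2 macrophage genes.

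All 4 rule genes were detected in 121 of the 157 cells, 3 of them in 28 and only 2 in 8. Lyve1, a hyaluronan receptor, averaged 54.3 UMIs per 10000 in the lymphatic cells of the CIN_high library and 43.7 in those of the CIN_low library, against 0.0666 and 0.0726 in the remaining endothelial cells. Mmrn1, which encodes the adhesive glycoprotein multimerin, averaged 67.5 and 38.3, and Reln, the secreted glycoprotein reelin, averaged 22.4 and 12.5. Prox1 averaged 8.72 and 12. It had a UMI in 110 of the 134 CIN_high cells and 22 of the 23 CIN_low cells. Reln was at 0 in all remaining endothelial cells, and Mmrn1 had 1 UMI there in each library.

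**Figure D1:**
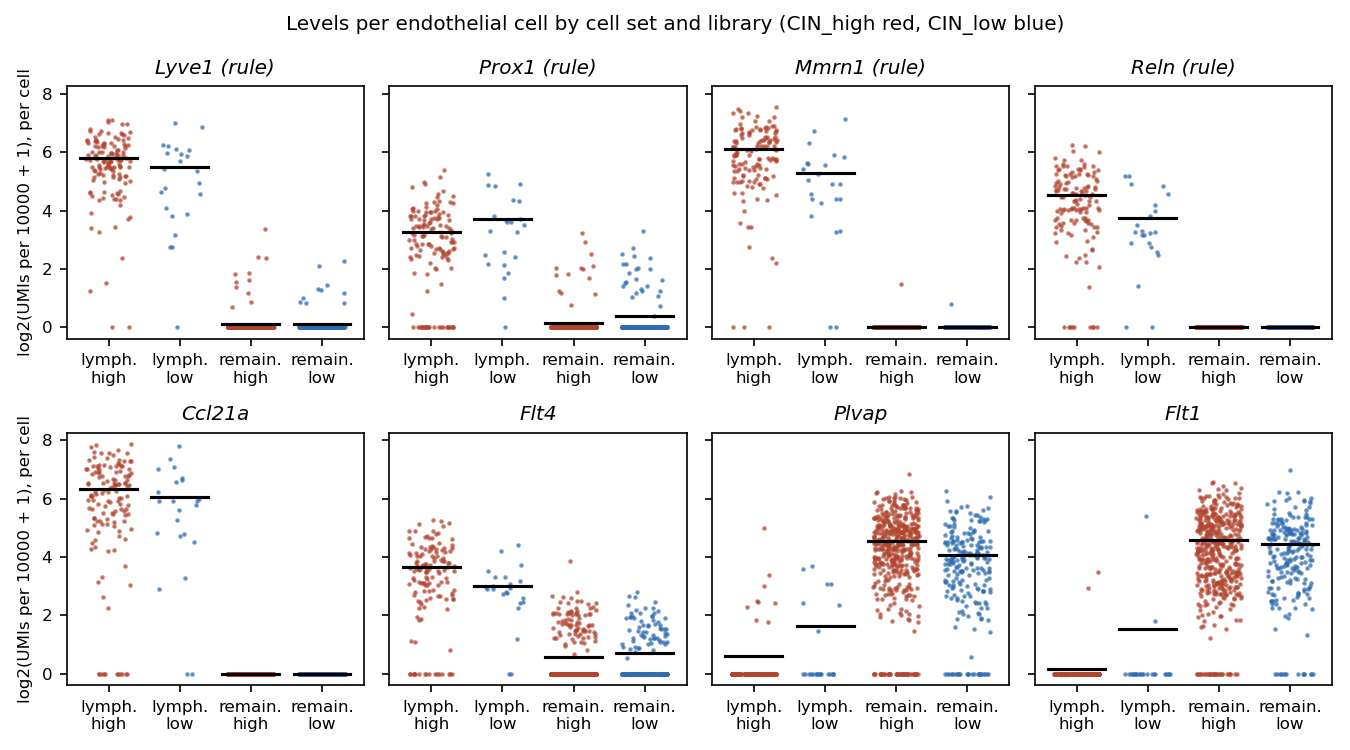
Each point is 1 endothelial cell, placed by its level on a log2 scale of UMIs per 10000 plus 1, for the 4 rule genes and for Ccl21a, Flt4, Plvap and Flt1; the bar is the log2 of the mean level plus 1. Lymphatic cells of both libraries lie high for Ccl21a and Flt4, and most have no UMI of Plvap or Flt1, whereas Ccl21a is at 0 in every remaining endothelial cell.

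Several genes that the rule did not use, such as Ccl21a and Flt1, set cells with 1 rule gene apart from cells with 3 or 4. The 8 cells with exactly 2, which the rule includes, were mixed. Flt4 and Nrp2 were also found below the edge. They had a UMI in 29.0% and 71.0% of the cells with 1 rule gene, and in 78.6% and 60.7% of those with 3. These shares come from unlike depths, with medians of 5732 UMIs in the cells with 1 rule gene and 2228 in those with 3. By mean level, Flt4 was at 0.568 and 11.4 UMIs per 10000 in these 2 groups, and Nrp2 at 2.81 and 5.87. In the 62 endothelial cells with just 1 rule gene, Ccl21a, Pdpn, Fxyd6 and Rspo3 were all at 0, and the blood vessel gene Flt1 had a UMI in 62 of 62. In the 8 cells with exactly 2 rule genes, Ccl21a was found in 3 and Flt1 in 3. In the 28 cells with 3, Ccl21a was found in 27 and Flt1 in 1, and in the 121 cells with all 4 it was found in 114 and Flt1 in 0. Among the cells just outside the rule, 39 had Prox1 alone (14 CIN_high, 25 CIN_low), 21 had Lyve1 alone and 2 had Mmrn1 alone. Prox1 had a UMI in 2.99% and 11.2% of the remaining endothelial cells, in 2.99% and 2.90% of T and NK cells, and in 61.7% and 75.0% of epithelial cells, in the CIN_high and CIN_low library. Median depths were 3442 and 3666 UMIs in the T and NK cells and 14032 and 15364 in the epithelial cells. The part of free RNA in the Prox1 UMIs of the remaining endothelial cells was not tested.

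**Figure D2:**
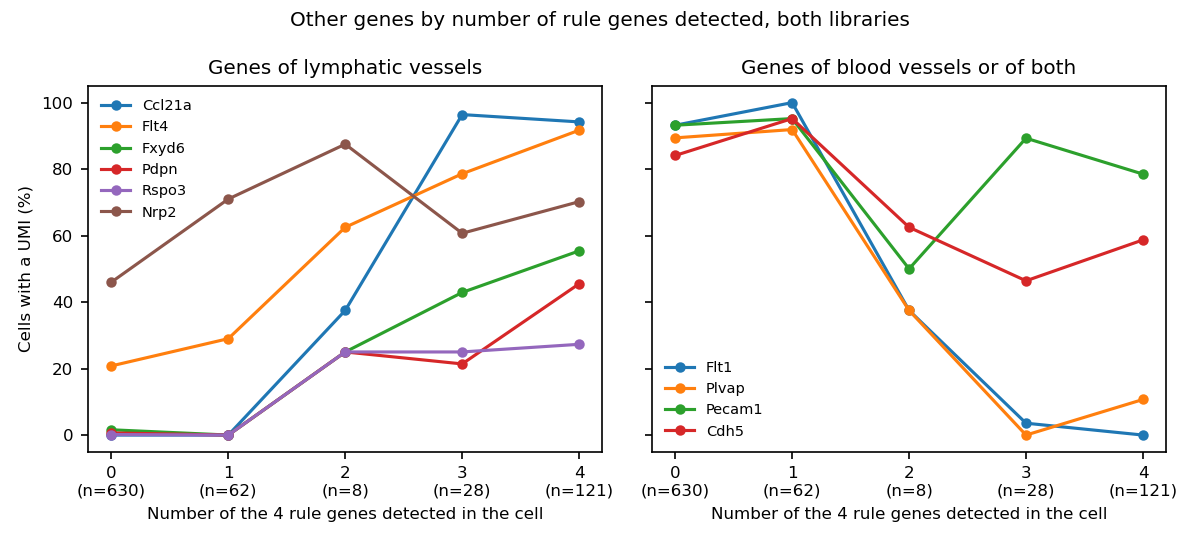
The share of endothelial cells with a UMI, in percent, is plotted against the number of rule genes detected in the cell (0 to 4, both libraries together, with the number of cells under each position). Ccl21a goes from 0 of 62 cells at 1 rule gene to 114 of 121 at 4, while Flt1 goes from 62 of 62 to 0 of 121; Pecam1, shared by both kinds of vessel, stays high on either side.

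The label was set beside genes outside the rule. The lists were chosen with earlier results of these data known, so they are not an independent check. Of 20 other lymphatic markers on a list drawn from general knowledge, 19 had UMIs in the lymphatic cells of each library and only Cldn11, a tight junction gene of lymphatic valves, was at 0. In the remaining endothelial cells 18 (CIN_high) and 17 (CIN_low) of the 20 also had UMIs, so this count does little to separate the sets. Summed over these markers, the median lymphatic cell held 204 UMIs per 10000 (CIN_high) and 128 (CIN_low), against 11.7 and 11.1 among the remaining endothelial cells. Of 32 blood endothelial markers, 30 and 26 had UMIs in the lymphatic cells, found in 98.5% and 100% of the cells. Their median summed level was 41.3 and 34.7, against 175 and 145 in the remaining endothelial cells. The pan-endothelial genes Pecam1 (7.88 and 7.37) and Cdh5 (3.36 and 3.93), an adhesion receptor and the endothelial cadherin, were present in both libraries. Of 8 T and NK cell markers, 2 had UMIs in the CIN_high and 1 in the CIN_low lymphatic cells, found in 5.97% and 4.35% of the cells at a mean summed level of 0.325 and 0.0578. In the remaining endothelial cells these means were 0.0206 and 0.0449. Of 6 B cell markers, 1 had UMIs in each library, in 0.746% and 17.4% of the lymphatic cells, with means of 0.0194 and 0.749 (0.128 and 0.291 in the remaining cells). The T cell genes Cd3d, Cd3e and Cd3g and the B cell genes Cd79a and Ms4a1 were at 0 in the lymphatic cells of both libraries. Of 10 macrophage markers, 10 had UMIs in the CIN_high and 6 in the CIN_low lymphatic cells, with a mean summed level of 4.11 and 3.76 and a median of 0 in both. Of 10 neutrophil markers, 10 and 9 had UMIs, at a mean summed level of 5.15 in the CIN_high and 18.4 in the CIN_low cells, and in the remaining endothelial cells these means were 11.9 and 55.0.

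Lymphatic and remaining endothelial cells were then compared over all genes, with the 2 libraries as the replicates. The mean level of each cell set in each library was put on a log2(UMIs per 10000 + 0.25) scale and fitted with limma, with the library as a block and the 4 rule genes left out. Of 5449 genes tested, 321 were higher in lymphatic cells (5.89%) and 436 were lower (8.0%) at a Benjamini-Hochberg adjusted p under 0.05, and the median difference was 0.00. The rule split the cells on 4 genes of these same cells, so the test says which other genes followed that split in both libraries. With 1 residual degree of freedom per gene, the spread is largely an estimate shared over all genes.

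Genes of lymphatic identity led the higher set. Of 19 other lymphatic markers tested, 18 were higher and 0 lower (median log2 difference 3.40 on that scale, and 3.40 with Ccl21a, which was at 0 in the remaining cells, placed at its bound). With a pseudocount of 1 in place of 0.25 this median was 1.83. Over all genes tested, 5.89% were higher and 8.0% lower. The list holds Fgl2, Cp, Sema3a, Pard6g, Sema3d, Nts and Flt4, which are described again below as single genes. Genes were tested if their mean over the 4 cell sets was at least 0.25. Ccl21a and other markers near 0 in the remaining cells thus passed only through the lymphatic cells, and Cldn11 was too low to be tested. Ccl21a, the chemokine that draws Ccr7-bearing cells to lymphatic vessels, averaged 79.8 UMIs per 10000 in the CIN_high lymphatic cells and 66.2 in the CIN_low ones, and no remaining endothelial cell had a UMI. Against a floor of 3 UMIs per library in the remaining cells, this is at least 5587-fold higher for CIN_high and at least 2894-fold higher for CIN_low (limma adjusted p = 1.3e-17). Within the lymphatic cells its level ranged widely, with a median of 69.3 and a highest cell of 234 in the CIN_high library, and 59.1 and 224 in the CIN_low library. The mouse genome holds near-identical copies of this gene (Ccl21b and Ccl21c), which were not analysed here, so it is uncertain which copy the reads came from.

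Ccl21a lies on mouse chromosome 4 at chr4:42772860-42773993 on the minus strand (GRCm38, GENCODE vM21, protein coding). Reln lies on chromosome 5 at chr5:21884454-22344702, also on the minus strand. The 250 bases before the start site of both genes are shown because neither had a single UMI in the 692 remaining endothelial cells. They are RefSeq sequences of build GRCm38.p6, at chr4:42773992-42774241 and chr5:22344706-22344955, given 5′ to 3′ on the gene's strand. Capitals mark matches on either strand to GGAAG, the core bound by ETS factors, many of which act in endothelium.
Ccl21a: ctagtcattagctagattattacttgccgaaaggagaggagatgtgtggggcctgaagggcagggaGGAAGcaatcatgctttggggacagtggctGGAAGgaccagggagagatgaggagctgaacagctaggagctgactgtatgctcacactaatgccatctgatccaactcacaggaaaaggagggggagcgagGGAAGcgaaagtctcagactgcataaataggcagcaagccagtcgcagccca
Reln: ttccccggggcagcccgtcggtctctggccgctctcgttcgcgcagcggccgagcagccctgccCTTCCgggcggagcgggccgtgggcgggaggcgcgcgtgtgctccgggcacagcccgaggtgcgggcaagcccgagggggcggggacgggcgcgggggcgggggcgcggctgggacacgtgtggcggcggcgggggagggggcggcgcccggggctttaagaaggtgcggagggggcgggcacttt
The Ccl21a window held 3 matches and the Reln window 1. Neither held AGGTCA, a core bound by nuclear receptors such as Nr2f2, or TGCTGAC, a core bound by MAF factors, searched on both strands. Of the 321 higher genes, 246 had a RefSeq window, and 63.9% of their 324 windows held GGAAG on either strand, against 68.0% of the windows of the lower genes, 68.3% of those of all tested genes and 64.1% of all 32851 windows. For AGGTCA the shares were 8.64%, 11.4%, 10.5% and 14.0%, and for TGCTGAC 3.09%, 3.24%, 3.12% and 3.81%. A match is only a match of letters within 250 bases.

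Receptors of the vascular endothelial growth factor system differed in both directions. Flt4, the receptor of Vegfc, stood at 11.5 and 7.09 UMIs per 10000 in the lymphatic cells of the CIN_high and CIN_low library, against 0.477 and 0.625 in the remaining cells (log2 difference 3.54 ± 0.27 SE, limma adjusted p = 9.5e-10). Its co-receptor Nrp2 was higher by a log2 difference of 1.09 ± 0.24 (limma adjusted p = 0.00239), a call lost without the library block (0.0512) and in cells thinned to 2000 UMIs (0.261). Flt1, a receptor of Vegfa, fell from 23.1 and 21.0 in the remaining cells to 0.126 and 1.89, where 2 of 134 and 2 of 23 cells had a UMI and 1 CIN_low cell was at 41.0, and Nrp1 fell from 7.06 and 3.87 to 0.0747 and 0.174. Of 13 genes of this system tested, 3 were higher (Flt4, Pgf and Nrp2) and 3 lower (Flt1, Nrp1 and Ptprb). The shares over all genes tested were 5.89% higher and 8.0% lower. The ligand Vegfc had 1 UMI in all lymphatic cells.

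Transcription factors of the lymphatic lineage split, with 3 of 10 higher and 2 lower, beside 5.89% higher and 8.0% lower over all genes tested. Maf, a large bZIP factor, averaged 17.1 and 9.11 UMIs per 10000 in lymphatic cells and 0.106 and 0.273 in the remaining cells (log2 difference 4.88 ± 0.30, limma adjusted p = 1.9e-11). Nr2f2 was at 9.99 and 6.29 against 2.35 and 2.21, and Tbx1, a T-box factor, was at 1.25 and 0.521 against 0 in both libraries. The lower factors were Sox7 and Sox18. Sox18, an inducer of Prox1 in the embryo, was at 0.792 and 0.576 against 1.57 and 1.71 (limma adjusted p = 0.0154), a call lost with summed UMIs, in thinned cells and without the library block (0.101, 0.424 and 0.0651). Gata2, Foxc1, Nfatc1 and Hhex did not pass the test, and Foxc2, a factor of collecting vessels and valves, was too low to be tested.

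The genes with the largest differences upward after Ccl21a included secreted and guidance proteins. Fgl2, a fibrinogen-like protein, averaged 32.8 and 17.5 UMIs per 10000 in lymphatic cells and 0.224 and 0.135 in the remaining cells (log2 difference 5.82 ± 0.25, limma adjusted p = 5.4e-14). The semaphorins Sema3a (5.92 and 7.44 against 0.0305 and 0.0564) and Sema3d (4.87 and 3.39 against 0.0253 and 0.0471), guidance cues for axons and vessels, were higher in both libraries. Cp, the copper-binding ferroxidase ceruloplasmin, was at 12.8 and 9.73 against 0.219 and 0.168, and Gpx3, a secreted glutathione peroxidase, at 7.35 and 7.97 against 0.0638 and 0.00468. Pard6g, a cell polarity protein, had 1 UMI in the remaining cells of each library, and its summed UMIs stood in a ratio of 1271 (95% exact interval 226 to 50384) for CIN_high and 513 (86.6 to 20770) for CIN_low.

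Nts, the neuropeptide neurotensin, was at 3.68 and 3.29 UMIs per 10000 in lymphatic cells, where 39.6% and 56.5% of the cells had a UMI. It had 0 and 1 UMI in the remaining endothelial cells. Dtx1, a ubiquitin ligase of Notch signalling, was at 3.42 and 2.58 and had no UMI in the remaining cells, which is at least 239-fold and at least 113-fold higher against the same floor. Other genes with large differences were Abi3bp, Plce1, Tnxb, Prelp, Col23a1, Serpina3n and Adamtsl1, with log2 differences from 3.49 to 4.01.

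**Figure D3:**
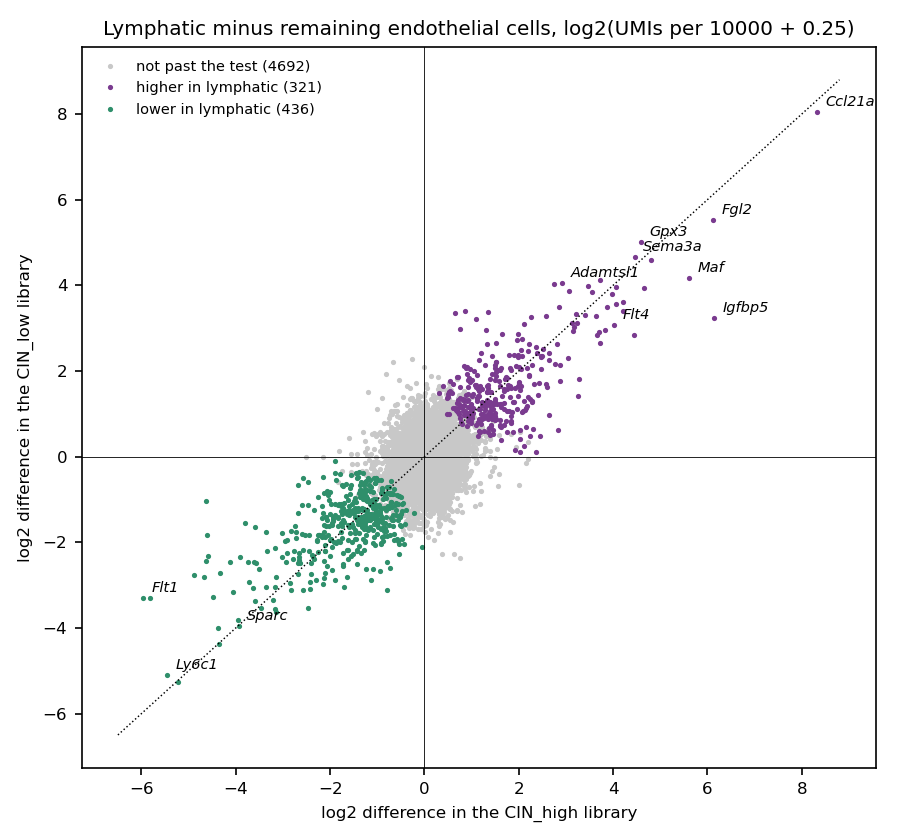
Each point is 1 of the 5449 genes tested, with the log2 difference between lymphatic and remaining endothelial cells in the CIN_high library on the horizontal axis and in the CIN_low library on the vertical axis; the dotted line marks equal differences. The 321 higher and 436 lower genes have the same sign in both libraries, with Ccl21a, Fgl2 and Maf at the upper end and Ly6c1 at the lower end; Igfbp5 lies below the line, at 6.14 against 3.24.

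Genes of blood vessels led the lower set, where 8.0% of all genes tested were lower and 5.89% higher. Of 29 blood endothelial markers tested, 20 were lower and 0 higher (median log2 difference -1.85, and -2.01 with Esm1 and Sema3g, which were at 0 in lymphatic cells, at their bounds). With a pseudocount of 1 it was -1.0. Markers at 0 in lymphatic cells, such as Esm1 and Sema3g, passed the filter on mean level only through the remaining cells. Ly6c1, a surface protein of blood endothelium and monocytes, was at 0.0932 and 0.0435 UMIs per 10000 in lymphatic cells and at 14.9 and 9.83 in the remaining cells (log2 difference -5.28 ± 0.27, limma adjusted p = 9.8e-13). Plvap, which forms the diaphragms of fenestrated capillaries, was at 0.520 and 2.09 against 22.4 and 15.6. Vwf, the von Willebrand factor, was at 0.178 and 0.218 against 8.66 and 7.29.

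Of the 20 pan-endothelial genes, 8 were lower and 1, the claudin Cldn5, was higher (3.53 and 2.65 against 1.03 and 0.458). For this list and the next, the shares over all genes tested were 8.0% lower and 5.89% higher. Pecam1 was lower by a log2 difference of -0.94 ± 0.22 (limma adjusted p = 0.00332) and Cdh5 by -1.08 ± 0.23 (0.00159). Junction and adhesion proteins were uneven, with 4 of 18 higher (Jup, Cldn5, Itga9 and Ctnna1) and 9 lower, among them Jam2 and Esam. Jup, which encodes plakoglobin, stood at 2.63 and 3.64 against 0.692 and 0.710, and Esam at 0.171 and 0.435 against 5.28 and 4.96. The integrin Itga9, part of lymphatic valves, was at 1.55 and 1.80 against 0.275 and 0.390.

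Of 20 leukocyte chemokine and adhesion genes, 11 were lower and 4 higher (Ccl21a, Ackr2, Ackr3 and Ccl2), beside 8.0% and 5.89% of all genes tested. The selectins and adhesion receptors that capture leukocytes from blood were among the lower genes: Sele stood at 0.161 and 0.871 UMIs per 10000 in lymphatic cells against 5.92 and 5.48, and Vcam1 at 0.0709 and 0.958 against 7.54 and 5.73. Cxcl12 was at 0.731 and 0.495 against 11.8 and 3.89. Of the atypical chemokine receptors, which bind chemokines without the usual signalling, Ackr2 was higher (2.54 and 2.85 against 0.0478 and 0.107) and Ackr1, a venular receptor, was lower (0.0201 and 0.131 against 2.80 and 2.09). Ccl2, a monocyte chemokine, was at 0.25 in the CIN_high and 2.74 in the CIN_low lymphatic cells against 0.0681 and 0.0423, with UMIs in 4 of 134 and 6 of 23 cells.

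Matrix and basement membrane genes moved in both directions, with 7 of 30 higher and 15 lower, beside 5.89% and 8.0% of all genes tested. The higher members were Igfbp5, Timp2, Fn1, Lama4, Timp3, Emilin1 and Ltbp4. Timp3, an inhibitor of metalloproteinases, averaged 70.6 and 38.7 UMIs per 10000 against 13.2 and 14.0, and Lama4, a laminin chain, 6.21 and 6.74 against 1.32 and 1.44. The collagen IV genes of basement membrane were lower (Col4a1 at 5.56 and 11.2 against 16.1 and 27.4), as were Sparc, Sparcl1 and Igfbp7. Igfbp7, which binds insulin-like growth factors, was at 2.01 and 6.63 against 45.4 and 45.2.

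Uptake and lipid handling genes held 3 higher and 5 lower members of 14, beside 5.89% and 8.0% of all genes tested. Mrc1, the mannose receptor, was at 1.66 and 1.32 UMIs per 10000 in lymphatic cells against 0.0929 and 0.131, and the scavenger receptor Stab1 at 4.93 and 9.08 against 1.06 and 1.55. Mrc1 is also a macrophage gene. A UMI of a macrophage marker was found in 35.1% of the CIN_high and 47.8% of the CIN_low lymphatic cells, and the part of macrophage RNA in the Mrc1 difference was not tested. The fatty acid transporter Cd36 had 2 UMIs in all lymphatic cells and was at 17.3 and 2.21 in the remaining cells. Fabp4, a fatty acid binding protein, was at 3.33 and 7.0 against 87.3 and 25.4.

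Among growth factors and niche signals, 2 of the 10 tested were higher and 4 lower. For these and the Notch and ephrin genes below, the shares over all genes tested were 5.89% higher and 8.0% lower. Rspo3, an R-spondin that amplifies Wnt signals to intestinal stem cells, was at 1.18 and 1.02 UMIs per 10000 in lymphatic cells, where 38 of 134 and 4 of 23 cells had a UMI, and at 0.00753 and 0 in the remaining endothelial cells (limma adjusted p = 2.6e-05). In thinned cells its adjusted p was 0.0795. Fibroblasts were at 0.525 and 0.456, and pericytes at 0.448 and 0. Tgfb2 was also higher, and Il6, Pdgfb, Edn1 and Pdgfd were lower. Of 11 Notch and ephrin genes tested, Hes1 was higher and Jag2, Notch4, Efnb2 and Jag1 were lower. Notch4, Efnb2 and Jag1 are known from arterial endothelium.

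Calls in the inflammatory, antigen presentation and stress lists stand beside shares of 5.89% higher and 8.0% lower over all genes tested. Type I interferon response genes held 4 higher members of 16 (among them Ifi27l2a, Zbp1 and Ifi44) and 1 lower, Cxcl10. Ifi27l2a was at 2.42 and 5.35 UMIs per 10000 against 0.307 and 0.329. Of 14 class I presentation genes 0 passed the limma test and 0 had an unadjusted p under 0.05, and of 7 class II genes H2-Ab1 and Cd74 were lower. Of 23 NF-kB inflammatory genes, 1 was higher (Ccl2) and 6 lower. Except for Il6, counted above among growth factors and niche signals, all of these were already counted among the leukocyte chemokine and adhesion genes. Dissociation stress genes, which rise during tissue digestion, held 1 higher and 5 lower members of 17, and no gene of the G2 and M phase list was high enough to be tested.

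**Figure D4:**
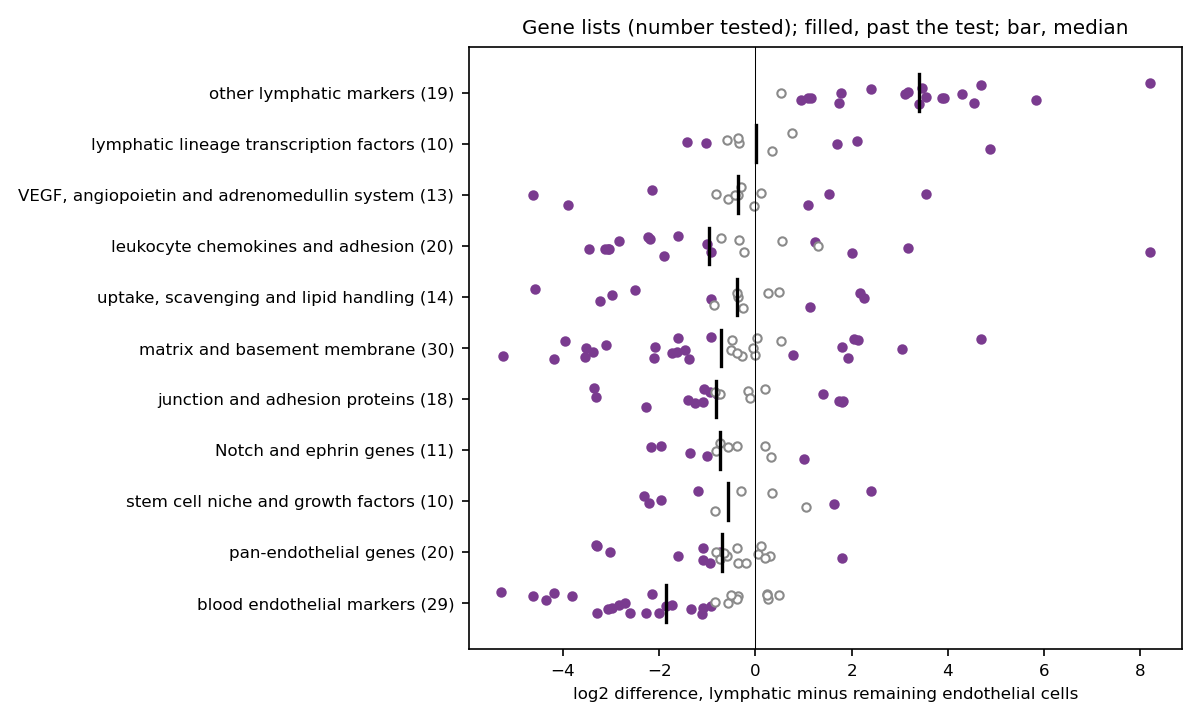
Each point is 1 gene of a list, placed by its log2 difference between lymphatic and remaining endothelial cells; filled points passed the limma test, open points did not, and the bar is the median of the list. Other lymphatic markers have a median of 3.40 and blood endothelial markers one of -1.85, while the transcription factors, with a median of 0.00, hold genes on both sides.

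Within the lymphatic cells, the CIN_high and CIN_low libraries were set side by side. With 1 library per class there was no test, and no p-value is given. Genes with at least 30 UMIs in all lymphatic cells and a UMI in at least 10% of the cells of either class were read against a fold of 2 in mean level. Of 3098 such genes, 470 were past 2-fold higher in CIN_high (15.2%) and 191 past 2-fold lower (6.17%), with a median log2 ratio of 0.13. In the remaining endothelial cells, 129 of 6279 genes were past 2-fold higher (2.05%) and 288 lower (4.59%). Counts were thin: the 134 CIN_high lymphatic cells held 446467 UMIs and the 23 CIN_low cells 97300. The median mitochondrial share of UMIs was 5.77% in the CIN_high and 9.10% in the CIN_low lymphatic cells. In the remaining endothelial cells it was 6.66% and 6.91%. The part of this difference in the ratios was not tested. The exact 95% counting interval of the ratio of summed UMIs left out 1 for 164 of the 470 higher genes and 117 of the 191 lower genes. Of the higher genes, 172 had 3 or fewer UMIs in the CIN_low cells. By summed UMIs in place of mean level, 349 genes were past 2-fold higher and 155 lower. Of these, 291 and 108 were among the 470 and 191. The counts also follow in part from the filter, since 116 of the higher and 26 of the lower genes passed it only through the class in which they were high.

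Of 19 measured other lymphatic markers, 1 was past 2-fold in either direction (Fxyd6), with a median log2 ratio of 0.27. Over all measured genes, 15.2% were past 2-fold higher and 6.17% lower. Fxyd6, a regulator of the sodium pump, was at 3.86 against 1.83 UMIs per 10000 (summed UMIs in a ratio of 1.87, 95% interval 1.16 to 3.19). Ccl21a was at 79.8 in the CIN_high and 66.2 in the CIN_low cells, a ratio of summed UMIs of 1.09 (1.00 to 1.18). Mmrn1 and Reln, 2 of the rule genes, were 1.76-fold and 1.79-fold higher in the CIN_high cells, and Flt4 was 1.63-fold higher. Of 8 measured lineage transcription factors, Tbx1, Gata2 and Hhex were past 2-fold higher in mean level and 0 lower, each on 6 or fewer UMIs in the CIN_low cells. By summed UMIs only Tbx1 was past 2-fold, with ratios of 2.14 (0.856 to 6.87) for Tbx1, 1.80 (0.639 to 6.99) for Hhex and 0.981 (0.397 to 2.90) for Gata2.

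Several genes differed in how many cells carried them. Igfbp5, a secreted binding protein of insulin-like growth factors, averaged 42.5 UMIs per 10000 in the CIN_high lymphatic cells and 6.02 in the CIN_low ones, with UMIs in 102 of 134 and 9 of 23 cells (ratio of summed UMIs 5.17, 4.12 to 6.57). After thinning to 2000 UMIs, 75.5% of 94 CIN_high cells and 22.2% of 18 CIN_low cells had an Igfbp5 UMI. In the remaining endothelial cells it was at 0.357 and 0.413. Fibroblasts, at 36.9 and 95.6, also express Igfbp5. In sum they held 26283 Igfbp5 UMIs in the CIN_high library (966 cells) and 1773 in the CIN_low library (21 cells). Of 9 fibroblast markers, 6 had UMIs in the CIN_high lymphatic cells (a mean summed level of 0.422, in 10.4% of the cells) and 1, Dcn, in the CIN_low ones (2.23, in 21.7%), while Pdgfra, Col6a1 and Col6a2 were at 0 in both. The part of fibroblast RNA in the Igfbp5 difference was not tested.

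Ackr3, an atypical receptor that takes up Cxcl12 and adrenomedullin, was at 3.21 and 0.758 UMIs per 10000, with UMIs in 70 of 134 and 4 of 23 cells (ratio 3.35, 1.65 to 7.93). Emcn, a sialomucin of capillaries and veins, was at 4.15 and 0.794 (ratio 4.34, 2.31 to 9.18). Il33, an alarmin of barrier tissue, had UMIs in 41 of 134 CIN_high cells and 0 of 23 CIN_low cells, which is at least 5.28-fold higher against a floor of 3 UMIs. In the remaining endothelial cells it was at 0.161 and 0.0109. Il7, a survival factor for T cells, was at 0.882 and 0.141, with 37 UMIs against 1 (ratio 8.06, 1.36 to 327).

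The 12 largest ratios upward, Rpn2, Prxl2c, Hecw2, Fndc1, Tshz1, Ccdc141, Abi2, Nudc, Usp14, Usp19, Tppp3 and Cyp4b1, all rested on 1 to 3 UMIs in the CIN_low cells. Tppp3, a tubulin-binding protein, had 141 UMIs against 3 (ratio of summed UMIs 10.2, 95% interval 3.43 to 50.3), and Rpn2, a subunit of the oligosaccharyltransferase, 67 against 2 (7.30, 1.94 to 61.5). The intervals of the others had lower ends from 1.05 to 2.02. In the remaining endothelial cells 0 of the 12 met the same line, but some were too low there to be measured: Ccdc141 and Tppp3 were 4.74-fold and 2.70-fold higher in CIN_high, at levels of 0.0236 and 0.205.

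Of 22 measured matrix and basement membrane genes, 7 were lower in CIN_high (Col4a1, Col4a2, Lamb1, Fn1, Fbln2, Ecm1 and Igfbp7) and 2 higher (Lamb2 and Igfbp5), with a median log2 ratio of -0.39. The shares over all measured genes were 6.17% lower and 15.2% higher. Fn1, the fibronectin gene, was at 4.07 UMIs per 10000 in the CIN_high and 15.3 in the CIN_low lymphatic cells, with UMIs in 44 of 134 and 19 of 23 cells (ratio 0.249, 0.199 to 0.311). Thinned to 2000 UMIs, 25.5% and 77.8% of the cells had an Fn1 UMI, and in the remaining endothelial cells Fn1 was at 1.5 and 1.75. Col4a1 was at 5.56 and 11.2 (ratio 0.581, 0.472 to 0.719), and in the remaining cells at 16.1 and 27.4. Slc39a14, a zinc and iron importer, was at 1.03 and 5.99, with UMIs in 31 of 134 and 14 of 23 cells (ratio 0.212, 0.131 to 0.343).

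Of 28 NF-kB inflammatory genes listed, 12 were measured, and 0 of these were higher and 7 lower in CIN_high: Cxcl2, Ccl2, Il1b, Tnfaip3, Vcam1, Selp and Ptgs2. The median log2 ratio of the 12 was -1.63. Over all measured genes, 15.2% were higher and 6.17% lower. Of the 7, 4 (Ccl2, Vcam1, Selp and Ptgs2) passed the filter only through the CIN_low cells, so the count and the median describe the measured genes and not the list. In the remaining endothelial cells 4 of 21 measured were lower, beside 4.59% of all genes measured there, and the median was -0.29. Many of these UMIs sat in single cells. Selp, the P-selectin of veins, had 123 UMIs in the CIN_low lymphatic cells, of which 95.1% were in 1 cell, and Il1b had 126, of which 96.0% were in 1 cell. The chemokine Cxcl2 had UMIs in 9 of 23 CIN_low and 15 of 134 CIN_high cells (4.70 against 0.502 UMIs per 10000), and 65.6% of its 64 CIN_low UMIs were in 1 cell. Ccl2 had UMIs in 6 of 23 and 4 of 134 cells, with 50.0% of its 24 CIN_low UMIs in 1 cell.

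With at least 3 rule genes per cell, 4 of 10 measured NF-kB genes were lower (median -0.89). In a setting chosen after seeing the data, which left out the 4 lymphatic cells with a Flt1 UMI (2 in each library), 3 of 9 were lower (median -0.60): Cxcl2, Ccl2 and Tnfaip3. Cxcl2 then went from a log2 ratio of -3.23 to -2.33, Selp from -4.70 to -2.03, and Plac8, a small cysteine-rich protein of myeloid and epithelial cells, from -3.10 to -0.97. The neutrophil genes S100a8 (1.73 against 6.82) and S100a9 (1.90 against 7.81) were lower in CIN_high lymphatic cells as well, and they were also lower in CIN_high among the remaining endothelial cells (3.90 against 18.0 and 5.29 against 23.8). The part of neutrophil RNA in these inflammatory differences was not tested.

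Other genes that were lower in CIN_high were Vcam1, Cxcl9, Dcn, Csf1, Map2k3 and Cd14. In the remaining endothelial cells Cxcl9 (2.51 in CIN_high against 5.16 in CIN_low) and Cd14 (1.09 against 3.54) were also past 2-fold lower. Dcn (0.309 against 0.504) was lower there within 2-fold. Vcam1 (7.54 against 5.73), Csf1 (0.731 against 0.481) and Map2k3 (0.923 against 0.889) were not lower there. A single cell held 78.9% of the 19 CIN_low UMIs of Vcam1, 57.7% of the 26 of Csf1 and 50.0% of the 44 of Cd14. Vcam1 was not among the lower NF-kB genes with at least 3 rule genes per cell, with doublets left out or without the cells that had a Flt1 UMI. Its log2 ratio with doublets left out was -4.88, against -3.76 in the main setting. There it left the list through the filter on UMIs and cells and not through the fold line. Map2k3, a kinase upstream of p38, had UMIs in 17 of 134 and 11 of 23 cells (ratio 0.272, 0.134 to 0.562). Dcn, the fibroblast gene decorin, had 34 UMIs in the CIN_low cells, 70.6% of them in 1 cell, while the other 8 fibroblast markers were at 0 there. Cxcl9 depended on how cells were weighted, with a mean level 9.76-fold lower in CIN_high but a ratio of summed UMIs of 0.390 (0.283 to 0.541), since 89.2% of the CIN_high UMIs were in 1 cell.

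**Figure D5:**
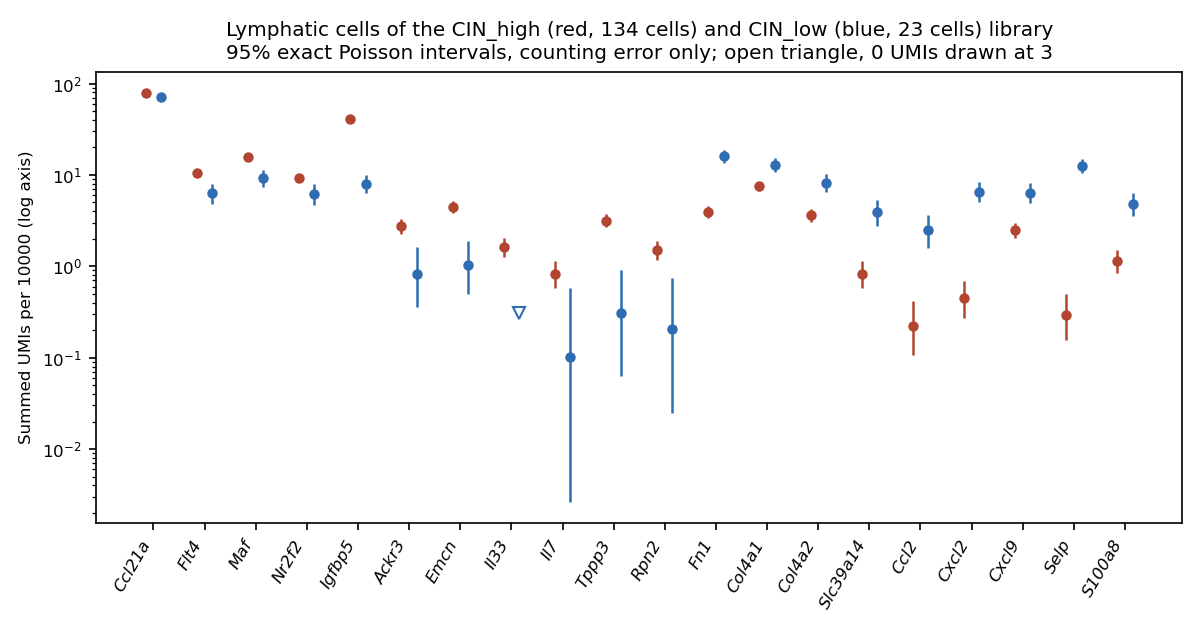
Summed UMIs per 10000 in lymphatic cells of the CIN_high (red) and CIN_low (blue) library are shown on a log axis with exact 95% Poisson intervals, which cover counting error only; the open triangle marks 0 UMIs, drawn at 3. The intervals are wide where the CIN_low cells hold few UMIs, as for Il7 (1 UMI), Rpn2 (2) and Tppp3 (3), and narrow for Igfbp5 and Fn1, which differ in opposite directions.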

How the data were processed

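Distal colon adenomas were dissociated and profiled by droplet sequencing (10x Genomics) in 2 libraries. The authors deposited 1 matrix of 21041 genes in 14097 cells, whose values are natural logs (ln) of 1 plus UMIs per 10000, read from the values themselves, with a file of cell types and a file of CIN classes. Cell Ranger 2.1.1, Seurat and build mm10 are named in the submitters' processing notes. The filters that the authors applied to cells are not stated in those notes.

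The values were reversed to whole UMIs per cell: 100% came out whole within 0.01. Mean UMIs per 10000 were taken over cells for each cell set and library, and log2(mean + 0.25) was fitted with limma 3.58.1 in R 4.3.3 (trend, library as a block, genes with a mean level of at least 0.25, all genes together, Benjamini-Hochberg). The deposited values are not raw counts, so no count test was used. Each group holds 2 libraries, so p-values measure only the spread between these libraries. Ratios between CIN_high and CIN_low carry exact 95% intervals on summed UMIs and no test. A floor of 3 UMIs stands in for 0. The depth of single lymphatic cells ran from 813 to 26689 UMIs.

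Doublets were kept in the main analysis. Scrublet (in Scanpy 1.11.5, expected rate 6%) marked 2.29% of CIN_high and 3.15% of CIN_low cells, and a version without them was run. Named genes were the 20 largest upward and 15 largest downward differences past the test with the same sign in both libraries and a UMI in at least 10% of the cells of the higher set (predicted, ribosomal, mitochondrial, hemoglobin and sex-linked genes aside), the 12 largest ratios in each direction between classes, and a short set of lymphatic genes. From each list up to 4 members with large differences could be named; other list members were singled out with their values seen. The cells, gene lists and tests were all chosen with earlier results of these data known, and the lists come from general knowledge. Some genes that the rule would name are not reported here. Scripts were tested on simulated data. Promoter sequences are from RefSeq (GRCm38.p6), and gene positions are from GENCODE vM21.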

Additional observations from a re-analysis of the deposited data

Results flagged for a closer look

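Cells outside the endothelial annotation also met the rule, in data that the comparisons did not use. Of the epithelial cells, 1.06% of those in CIN_high (14 of 1316) and 0.232% of those in CIN_low (4 of 1725) had at least 2 of the 4 genes. Of these 14 and 4 cells, 4 and 0 had Ccl21a, 3 and 1 had Flt4, and 2 and 0 had Pecam1, and their median depths were 17310 and 34033 UMIs against 14032 and 15364 for all epithelial cells. Among CIN_high fibroblasts 0.518% met the rule (5 of 966), of which 5 had Ccl21a, 4 Flt4 and 4 Pecam1. Among CIN_high myeloid cells 0.137% did (4 of 2930), of which 3 had Ccl21a, 2 Flt4 and 4 Pecam1. Scrublet marked 1 of the 14 epithelial cells and 0 of the others. These shares were listed because more than 3 cells met the rule, the count that a limit for 0 cells allows. Among CIN_low myeloid cells 1 of 5348 did (0.0187%), which is under that limit (0.0561%). Prox1 alone had a UMI in 61.7% and 75.0% of epithelial cells. The part of doublets in these cells was not tested further.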

How the results depend on the processing

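The direction of the 41 named genes tested between lymphatic and remaining cells was the same under every alternative run that could give a value; for the genes with the largest differences, the same sign in both libraries was part of the choice. Of the genes higher and lower in lymphatic cells, 177 and 280 were called in cells thinned to 2000 UMIs (165 and 255 of them among the main calls), 172 and 234 with a filter at 1 UMI per 10000, where 1595 genes were tested, and 176 and 242 without the library block. Among those 41 genes, calls lost were Sox18 (adjusted p 0.101 with summed UMIs, 0.424 thinned, 0.0651 without the block), Nrp2 (0.261 thinned, 0.0512 without the block) and Rspo3 (0.0795 thinned); calls lost by other members of the lists are not given gene by gene. The median log2 difference of the other lymphatic markers went from 3.40 to 1.83 with a pseudocount of 1 and 4.22 with 0.1, and that of the blood endothelial markers from -1.85 to -1.0 and -2.38, and to -1.36 with summed UMIs. Of the genes past the line between CIN_high and CIN_low, the counts higher and lower were 891 and 515 at a fold of 1.5, 195 and 48 at a fold of 3, 858 and 488 with at least 15 UMIs and 153 and 62 with at least 60 UMIs. With at least 1 rule gene, 26.6% of CIN_high and 23.9% of CIN_low endothelial cells met the rule where 22.3% and 9.31% did with at least 2. Plac8 went from a log2 ratio of -3.10 to -0.83 with doublets left out, and Selp from -4.70 to -1.98 with at least 3 rule genes. No paired analysis was possible between CIN_high and CIN_low because each class is 1 library; where lymphatic and remaining cells came from the same library, the library was a block. The 23 CIN_low lymphatic cells and their 97300 UMIs limit every ratio between classes.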

Other observations

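Ligands and partners of lymphatic genes were found in other cell types of the same libraries. Vegfc, the ligand of Flt4, averaged 0.348 UMIs per 10000 in the CIN_high and 0.417 in the CIN_low remaining endothelial cells, and 0.335 and 0.103 in fibroblasts. Ccr7, the receptor for Ccl21, was at 0.877 and 0.936 in myeloid cells, where 4.06% and 4.79% of the cells had a UMI. In T and NK cells 9.40% and 11.8% had one. The mean levels of Ccr7 were 0.673 and 1.05 in T and NK cells, and 2.64 and 0.163 in B cells. Of the B cells, 18 of 40 and 3 of 93 had a UMI of it. Igfbp5 was at 42.5 and 6.02 in lymphatic cells. It was also higher in CIN_high in pericytes (5.58 and 2.38), myeloid cells (0.567 and 0.0196) and epithelial cells (0.142 and 0.0367). T and NK cells were at 0.0651 and 0.00551, from 6 UMIs and 1 UMI. Igfbp5 was not higher in CIN_high in the remaining endothelial cells (0.357 and 0.413). It was at 36.9 and 95.6 in fibroblasts, the latter from 21 cells, and at 0 in B cells. With 1 library a class, these differences were not tested, and neither was the part of fibroblast RNA in them. Pdpn, the podoplanin gene, was at 2.13 and 1.89 in lymphatic cells and at 3.70 and 3.41 in fibroblasts.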
